A study of Mus musculus with 19 samples.

Results

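SR and hnRNP splicing factors are the RNA-binding proteins that decide which exons of a pre-mRNA are joined. The 39 genes described here were listed by symbol, and all 39 were found among the 39017 genes measured. They are 10 SR proteins, 4 SR-related proteins of the Tra2 and Srrm families and 18 hnRNP proteins. The other 7 are 3 proteins that recognise the 3′ splice site (Sf3b1, U2af1 and U2af2), TDP-43 (Tardbp), the FET protein Ewsr1 and the paraspeckle proteins Sfpq and Nono. No cut-off on a measured value was used to choose them, though earlier results of these data were known. All 39 passed the filter on low counts, which left 13926 genes for testing.

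SR proteins carry RNA recognition motifs and a tail rich in arginine and serine, and they mostly bind exons and help the spliceosome to define them. hnRNP proteins coat nascent transcripts, often bind introns, and many of them block the use of nearby splice sites. Many of these factors limit their own amount by splicing their transcript into a form with an early stop codon, which nonsense-mediated decay (NMD) destroys, or into a form that retains an intron.

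The data are translating ribosome affinity purification (TRAP) libraries from the striatum of female mice, in which ribosomes tagged with EGFP-L10a are pulled down from 1 kind of spiny projection neuron and the RNA bound to them is sequenced. In Drd1::EGFP-L10a mice the tag is in D1 neurons, and in Drd2::EGFP-L10a mice it is in D2 neurons. Both lines were on a background that the labels spell C56BL/6J. Mice were 42 days old (young) or 2 years old (old), with 4 libraries in each of the 4 groups. All 4 groups carry the tagged ribosomal protein, and the tag marks whichever cells use the Drd1 or Drd2 control region, so a value is ribosome-bound RNA of those cells plus any RNA carried through the purification. The series' design text names them biological replicates, and no label ties a library to a litter, batch or day. Libraries were made with the NuGEN Ovation V2 kit. Another 3 samples of the series, from cultured NIH-3T3 cells, were not analysed here.

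Depth ran from 27484038 to 70903004 assigned fragments a library. The 5 D1 markers summed to 1860 to 2542 TPM (an isoform's abundance scaled by its length and by the library's total) in young D1, 3641 to 6621 in old D1, 128 to 149 in young D2 and 404 to 646 in old D2 libraries. In both cell types this sum was higher in every old library than in the young ones. The 5 D2 markers summed to 108 to 223, 112 to 551, 7615 to 8849 and 5455 to 11479 TPM in the same order. In D1 libraries most of the D1 marker sum was Tac1, at 1343 to 2076 TPM in young and 2960 to 5677 in old libraries. Pdyn was at 69.0 to 92.7 and 93.5 to 257, and Drd1 at 250 to 320.2 and 319.8 to 609.7. Isl1 was at 20.4 to 98.2 and 42.7 to 134.5, and Chrm4 at 74.3 to 111 and 26.6 to 97.2, so the 5 did not move as 1 set. The old D1 libraries stood apart from the others in ways that have no label. Sequenced fragments of old D1 libraries averaged 151 to 164 bases, whereas the other libraries had 170 to 195. A count was found for 10366 to 13695 genes in old D1 libraries and for 12774 to 14992 in the others, ranges that overlap. Pairs of old D1 libraries correlated at 0.886 to 0.938 against 0.942 or more in the other groups. No comparison of D1 age can be made without the old D1 group, so age and whatever set these libraries apart cannot be told apart. Markers of other cells moved with it as well. The 7 astrocyte markers summed to 53.1 to 121 TPM in young D1, 238 to 390 in old D1, 25.2 to 64.7 in young D2 and 88.6 to 153 in old D2 libraries, and none was at 0 throughout a group. In D1 libraries most of that sum's rise lay in Aldoc, at 25.04 to 57.49 TPM in young and 192 to 369 in old libraries. Slc1a2 was at 14.5 to 80.1 and 17.2 to 36.2 TPM, and Aqp4 and Gja1 were at 0 in 3 of the 4 old D1 libraries. The 5 markers of all spiny projection neurons summed to 4796 to 5978, 3524 to 3716, 6809 to 8297 and 6079 to 6593 TPM in the same order. The 4 markers of GABAergic interneurons summed to 62.1 to 140, 30.5 to 546, 5.15 to 53.1 and 11.7 to 91.9 TPM. The 5 oligodendrocyte markers summed to 126 to 288, 75.6 to 190.0, 155 to 264 and 244 to 348 TPM. Microglial and endothelial lists stayed at or below 6.68 TPM in every library, with C1qa at 0 in all of them. The part of these cells in the results below was not tested, and in bulk libraries fewer cells of a type and less RNA per cell cannot be told apart.

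Together the 39 genes took a small and variable share of the library. They summed to 5225 ± 528 TPM (SD, n = 4) in young D1, 8760 ± 1327 in old D1, 6295 ± 244 in young D2 and 7543 ± 613 in old D2 libraries. As a share of all estimated counts this was 0.527 ± 0.0518%, 0.851 ± 0.0898%, 0.645 ± 0.01003% and 0.740 ± 0.0712%. No library of young D1 neurons reached the lowest library of any other group on the TPM sum: its highest was 5510, and the lowest of the other groups was 5995. Most of the sum came from hnRNP genes, at 2675 ± 507 TPM in young D1 and 5105 ± 951 in old D1, whereas the 10 SR protein genes summed to 1742 ± 317 and 1929 ± 86.5 TPM. TPM is scaled by isoform length, so levels may be compared between genes. On it the highest of the 39 over all 16 libraries were Hnrnph1, Srsf5 and Srsf2, and the lowest were U2af2, Srsf9 and Srsf6. Hnrnph1, which binds runs of G, had a mean of 419 to 1038 TPM by group, and Srsf6 had 19.9 to 27.3.

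The first comparison asks how these genes changed between 42 days and 2 years in D1 neurons. Of the 39, 15 rose and 2 fell at a Benjamini-Hochberg adjusted p under 0.05 in edgeR's quasi-likelihood test, against 5.39% of all genes that rose and 5.44% that fell. The median log2 change was 0.64 over the 39 and -0.06 over all 13926 genes. Values were positive for 31 of the 39 and for 6636 of all 13926 genes. On TPM, old D1 libraries lay above all young D1 libraries for 18 of the 39 and below them for 2, against 6.17% and 7.60% of all genes. By family, 8 of 18 hnRNP genes rose and none fell, 3 of the 4 genes for TDP-43, Ewsr1, Sfpq and Nono rose, and of the SR proteins 2 rose, 1 fell and 7 were not called. Of the SR-related genes 1 of 4 rose.

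**Figure D1:**
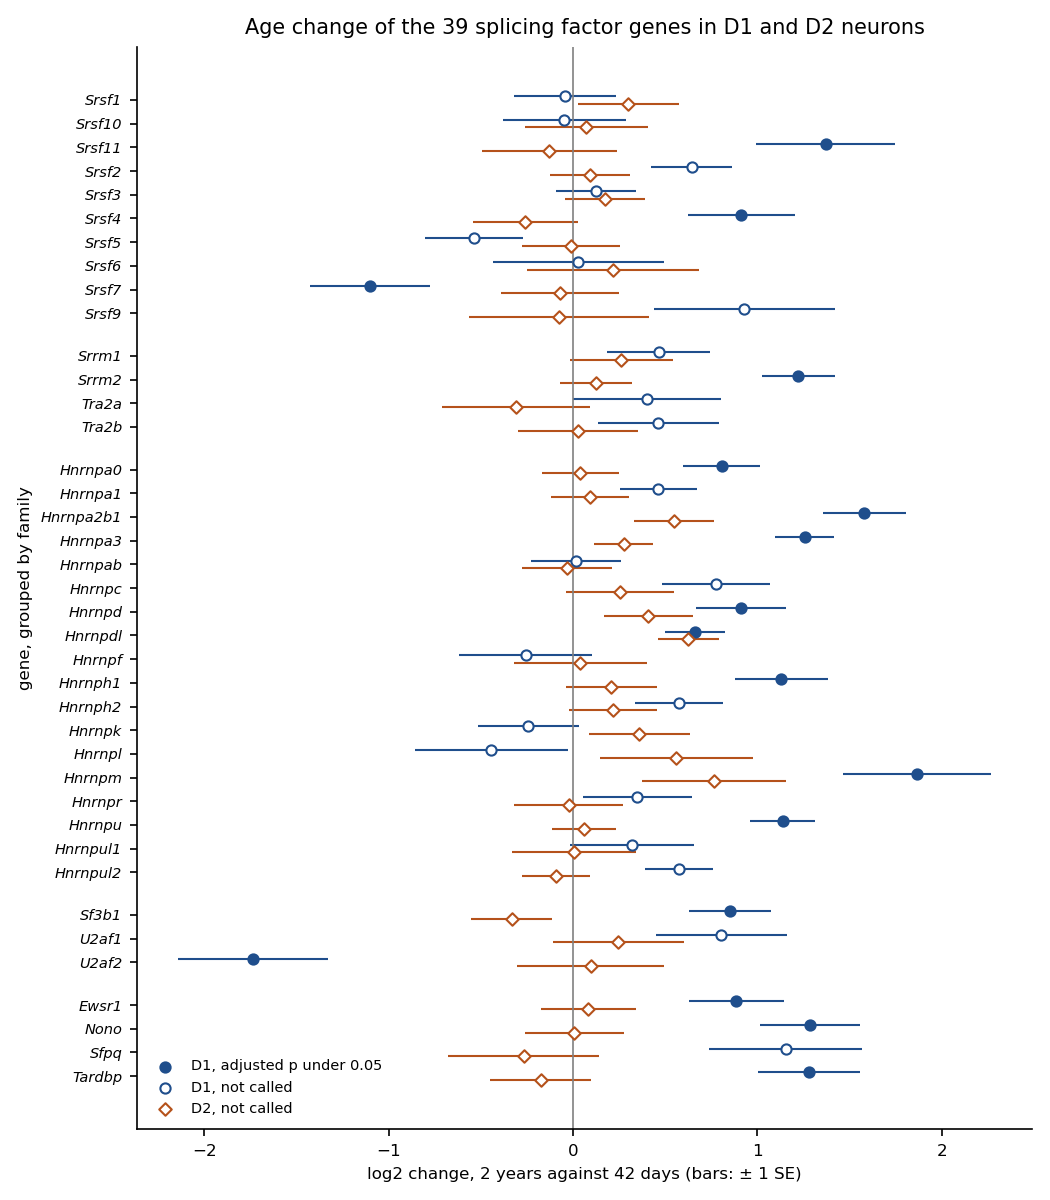
Log2 change from 42 days to 2 years of each of the 39 genes, with 1 SE, in D1 neurons (circles, filled where the adjusted p was under 0.05) and D2 neurons (diamonds), grouped by family. In D1 neurons 15 genes rose and 2 fell, and in D2 neurons none was called.

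Among the SR proteins Srsf11 and Srsf4 rose and Srsf7 fell. Srsf11 was at 68.4, 49.2, 95.4 and 21.3 TPM in young D1 and at 183, 123, 106 and 95.9 in old D1 libraries, a log2 change of 1.37 ± 0.37 (SE, edgeR adjusted p = 0.0241). The call of Srsf11 ended under 9 of 17 alternatives, 2 of them limma on TPM. Srsf4 had a mean of 38.6 ± 10.02 TPM (SD, n = 4) in young D1 and 74.97 ± 11.5 in old D1 (log2 0.91 ± 0.29, edgeR adjusted p = 0.0477), and its call ended under 10 of 17. Neither gene's groups overlapped, though for Srsf11 the highest young and the lowest old library were close.

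Srsf7, which like several SR proteins also carries spliced mRNA to the export machinery, went the other way. It was at 64.9, 53.8, 39.1 and 45.1 TPM in young D1 and at 22.8, 13.4, 37.5 and 26.1 in old D1 libraries. In D2 neurons it was at 86.9, 60.9, 75.6 and 51.7 when young and at 59.5, 69.2, 72.0 and 79.4 when old. All old D1 libraries lay below the other 12, and the log2 change in D1 was -1.10 ± 0.32 (edgeR adjusted p = 0.0351). The call ended with only the D1 libraries, by voom, and without young D1 library 1, 2 or 4 or old D1 library 1 or 2, with adjusted p-values of up to 0.212 over all alternatives run.

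Srsf2, a component of nuclear speckles, lay near the threshold. Its TPM was 333, 372, 452 and 403 in young D1 and 764, 1021, 799 and 762 in old D1 libraries, with no overlap, and 259.7, 568, 365 and 423 in young D2 and 476, 503, 493 and 441 in old D2 libraries, which overlapped. On counts its log2 change was 0.64 ± 0.22 and the edgeR adjusted p of 0.0653 missed the threshold, whereas DESeq2 (adjusted p = 0.0367) and voom with library weights (adjusted p = 0.0398) called it higher. Srsf5 was at 1183, 644, 532 and 823 TPM in young D1 and 588, 329, 368 and 491 in old D1 libraries (log2 -0.54 ± 0.26, edgeR adjusted p = 0.200). In D2 libraries it was at 855, 645, 635 and 506 when young and 371, 724, 905 and 1128 when old, the old ones on both sides of the young. Srsf6, the lowest of the 39, was at 25.9, 9.01, 16.6 and 37.8 TPM in young D1, 17.3, 27.9, 32.5 and 19.3 in old D1, 16.2, 17.1, 25.1 and 21.1 in young D2 and 28.9, 18.2, 38.6 and 23.3 in old D2 libraries, and all 4 groups overlapped. For Srsf1, Srsf3, Srsf6 and Srsf10 the log2 change in D1 lay between -0.05 and 0.13.

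Srrm2, a large protein with arginine-serine repeats that scaffolds nuclear speckles, rose in D1 neurons. Its TPM was 137, 101, 126 and 73.3 in young D1, 284, 258, 187 and 324 in old D1, 157, 136, 137 and 179 in young D2 and 166, 179, 144 and 219.9 in old D2 libraries. The D1 groups did not overlap and the D2 groups did. The log2 change was 1.22 ± 0.20 in D1 (edgeR adjusted p = 7.39e-04). Tra2a, Tra2b and Srrm1 had log2 changes of 0.40 to 0.46, and none passed in edgeR.

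The hnRNP A/B proteins, which bind introns and exons and mostly act against exon inclusion, include the genes with the 2 smallest p-values, Hnrnpa3 and Hnrnpa2b1. Hnrnpa2b1 was at 133, 188, 185 and 69.9 TPM in young D1 and at 594, 496, 378 and 279.9 in old D1 libraries, and at 227, 199.7, 208 and 203 in young D2 and 327, 324, 313 and 369 in old D2 libraries. Old libraries lay above young ones in both cell types. The log2 change in D1 was 1.58 ± 0.22 (edgeR adjusted p = 2.91e-04), and it stayed past the threshold under each of the 17 alternatives run for it. In D2 neurons it was 0.55 ± 0.22, which did not pass (edgeR adjusted p = 0.726).

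Hnrnpa3 was at 263, 361, 461 and 239 TPM in young D1 and 827, 799.8, 782 and 563 in old D1 libraries. It was at 348, 466, 328 and 454 in young D2 and 551, 527, 424 and 399 in old D2 libraries. For Hnrnpa3 only the D1 groups were apart, with a log2 change of 1.26 ± 0.16 (edgeR adjusted p = 1.39e-04). Hnrnpa0 rose less, from 118, 106, 128 and 107 TPM in young D1 to 199, 280.0, 219 and 156 in old D1 libraries, and was at 122, 123, 149 and 150.2 in young D2 and 104, 135, 157 and 201 in old D2 libraries (D1 log2 0.81 ± 0.21, edgeR adjusted p = 0.0195). Hnrnpa1 and Hnrnpab, close relatives of these, had log2 changes of 0.46 ± 0.21 and 0.01 ± 0.24 and were not called.

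Hnrnpu, which binds nascent RNA and the nuclear scaffold, was among the tightest of the genes that rose. It was at 79.5, 88.7, 78.0 and 70.5 TPM in young D1 and 211, 182, 269.5 and 188 in old D1 libraries, and at 113, 141, 112 and 167 in young D2 and 131, 119.5, 152 and 161 in old D2 libraries. The young D1 libraries lay below all other 12, and the log2 change in D1 was 1.14 ± 0.18 (edgeR adjusted p = 5.78e-04). Hnrnph1 was at 359, 519, 608 and 190.0 TPM in young D1 and 1324, 992, 945 and 889 in old D1 libraries (log2 1.13 ± 0.25, edgeR adjusted p = 0.00701). In D2 neurons it was at 646, 713, 679 and 794 when young and 1022, 865, 674 and 912 when old, and these overlapped.

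Hnrnpm, a nuclear hnRNP that binds G- and U-rich RNA, had the largest log2 change of the 39. Its TPM was 33.4, 93.1, 48.5 and 41.2 in young D1 and 498, 198, 137 and 506 in old D1 libraries, and 84.7, 52.0, 48.7 and 72.9 in young D2 and 88.8, 80.8, 120.0 and 67.7 in old D2 libraries. Every old D1 library lay above the other 12. The log2 change was 1.87 ± 0.40 (edgeR adjusted p = 0.00593). A protein-coding isoform of 634 bases, Hnrnpm-204, held a mean of 347 estimated counts in young D1 and 2484 in old D1 libraries.

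Hnrnpdl had nearly the same value in both cell types. It was at 173, 201, 182 and 128 TPM in young D1 and 267, 344, 301 and 207 in old D1 libraries, and at 183, 137, 161 and 167 in young D2 and 284, 256, 269.7 and 281 in old D2 libraries. Neither cell type's age groups overlapped. The log2 change was 0.66 ± 0.16 in D1 (edgeR adjusted p = 0.0137) and 0.63 ± 0.16 in D2 (edgeR adjusted p = 0.317). Its close relative Hnrnpd, which binds AU-rich elements in mRNA, rose in D1 from 180.1 ± 44.6 TPM (SD, n = 4) to 473 ± 221 (log2 0.91 ± 0.24, edgeR adjusted p = 0.0222), with 1 old library at 180.3 TPM inside the young range. Of the other hnRNP genes, Hnrnpk, Hnrnpf and Hnrnpl had log2 changes of -0.24, -0.26 and -0.44, and Hnrnpc, Hnrnph2, Hnrnpul2, Hnrnpr and Hnrnpul1 had positive values of 0.32 to 0.77. None of these passed in edgeR.

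The 3 genes of 3′ splice site recognition did not move together. U2af2, the U2AF subunit that binds the pyrimidine tract, was at 51.2, 50.9, 49.0 and 47.6 TPM in young D1 and at 7.95, 8.78, 25.8 and 18.9 in old D1 libraries. In D2 neurons it was at 89.3, 55.8, 43.7 and 42.3 when young and 63.0, 39.7, 86.2 and 71.5 when old. The old D1 libraries lay below all others, with a log2 change of -1.74 ± 0.41 (edgeR adjusted p = 0.0103), though the call ended with only the D1 libraries and by voom. U2af1, the partner that reads the AG at the intron's end, was at 91.1, 120.5, 133 and 102 TPM in young D1 and 235, 276, 245 and 76.2 in old D1 libraries (log2 0.80 ± 0.36, edgeR adjusted p = 0.153), so that 1 old library lay below all young ones. Sf3b1, the U2 snRNP subunit at the branch point, was at 54.3, 49.9, 48.5 and 44.4 TPM in young D1 and 94.3, 122, 61.5 and 96.7 in old D1 libraries, with no overlap, and at 77.5, 66.6, 58.0 and 76.1 in young D2 and 47.9, 59.6, 48.7 and 80.2 in old D2 libraries (D1 log2 0.85 ± 0.22, edgeR adjusted p = 0.0186).

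Tardbp encodes TDP-43, which binds UG repeats and keeps cryptic exons out of mRNA. It was at 68.8, 128, 65.1 and 38.4 TPM in young D1 and 344, 284, 199 and 211 in old D1 libraries, and at 108, 82.9, 124 and 110.4 in young D2 and 73.5, 101, 139.9 and 169 in old D2 libraries. The D1 groups did not overlap and the log2 change was 1.28 ± 0.28 (edgeR adjusted p = 0.00628). Nono was at 53.7, 56.9, 57.7 and 35.4 TPM in young D1 and 135, 173, 101 and 176 in old D1 libraries, and 81.5, 76.3, 139 and 95.7 in young D2 and 98.9, 103, 89.2 and 132 in old D2 libraries (D1 log2 1.29 ± 0.27, edgeR adjusted p = 0.00532). Its dimer partner Sfpq was at 52.0, 79.1, 93.0 and 72.6 in young D1 and 277, 326, 131 and 48.2 in old D1 libraries, and with 1 old library below the young ones edgeR did not call it (log2 1.15 ± 0.41, edgeR adjusted p = 0.0796), though DESeq2 did (adjusted p = 0.0374). In D2 neurons Sfpq was at 108, 89.35, 111 and 120 TPM when young and 104, 86.6, 144 and 114 when old. Ewsr1 rose in D1 from 147 ± 59.3 TPM (SD, n = 4) to 309 ± 30.7 (log2 0.89 ± 0.26, edgeR adjusted p = 0.0334).

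**Figure D2:**
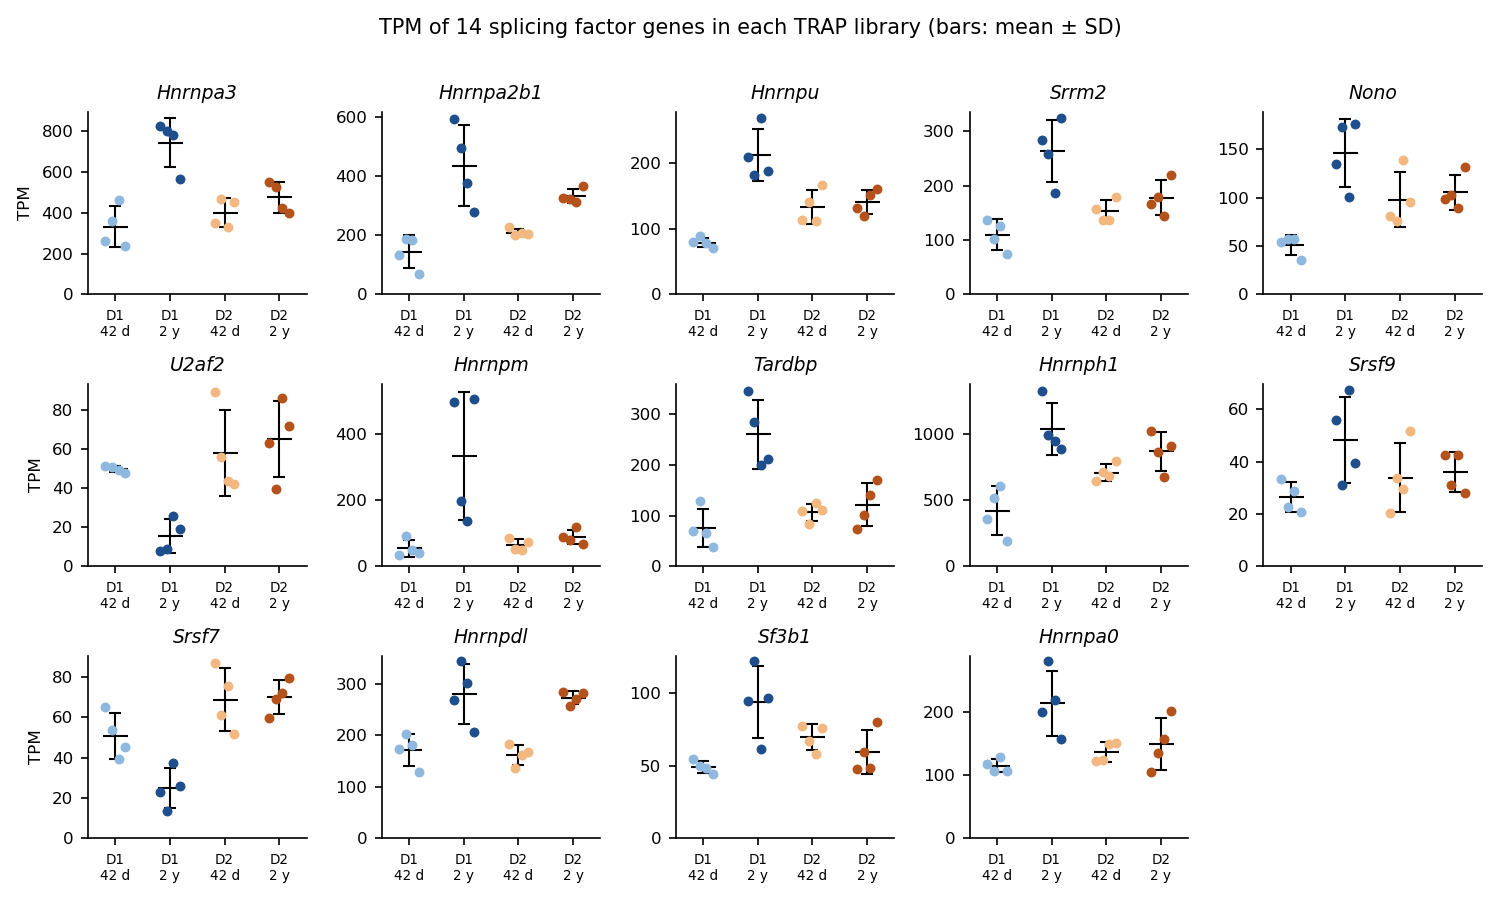
TPM of 14 genes in each library (points) with the mean and SD of each group (bars), for D1 and D2 neurons at 42 days and 2 years; each vertical axis starts at 0. Hnrnpu in young D1 lies between 70.5 and 88.7 TPM, below the other 12 libraries, and U2af2 in old D1 lies between 7.95 and 25.8, also below the other 12.

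GC content has to be read beside these changes. Across 13567 genes with a sequence, the D1 age change fell with the GC content of the main isoform (Spearman's rho = -0.34, a description across genes of the same libraries), and the 39 genes are AT-rich, with a median of 44.2% GC against 49.9% for all genes tested. Within the 39 the rho was 0.01. Under 50% GC, 11 of 29 genes rose, against 8.83% of all genes in that range and 17.0% of those that also had a mean of at least 20 TPM. At 50% GC or more, 4 of 10 rose (Srrm2, Srsf4, Hnrnpa0 and Ewsr1), against 1.92% of all genes and 4.26% of those with at least 20 TPM. Both limits were set after the values were seen.

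With a smooth trend over base composition and length taken out of each library, 8 of the 39 rose and 3 fell, against 2.45% and 4.32% of all genes. The median was then 0.12 over the 39 and -0.20 over all genes. Spearman's rho between GC content and the D1 age change was then 0.48 within the 39 and 0.08 over all genes. Within the 39 the change thus rose with GC content after the removal, which bears on the calls lost and gained below. When the library scaling was recomputed on the adjusted counts, an alternative added after seeing the data, 12 rose and 1 fell, against 6.64% of all genes in either direction, with medians of 0.30 and -0.03. Of the 17 genes called on the deposited counts, 7 kept their call under the first of these and 10 under the second. Hnrnpa2b1, Hnrnpm, Hnrnpa0, Ewsr1, Srsf4, Nono and Srsf7 kept it under both. Hnrnpa3, Hnrnpu, Hnrnph1, Hnrnpdl, Hnrnpd and U2af2 lost it under both, and for Sf3b1 the sign turned (log2 -0.27 and -0.098). Other genes gained a call under the first: U2af1 (log2 1.53) and Srsf9 (1.83) were higher, and Srsf1 (-1.09) and Srsf5 (-0.96) lower. Under the second U2af1, Srsf9 and Srsf2 gained one.

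**Figure D3:**
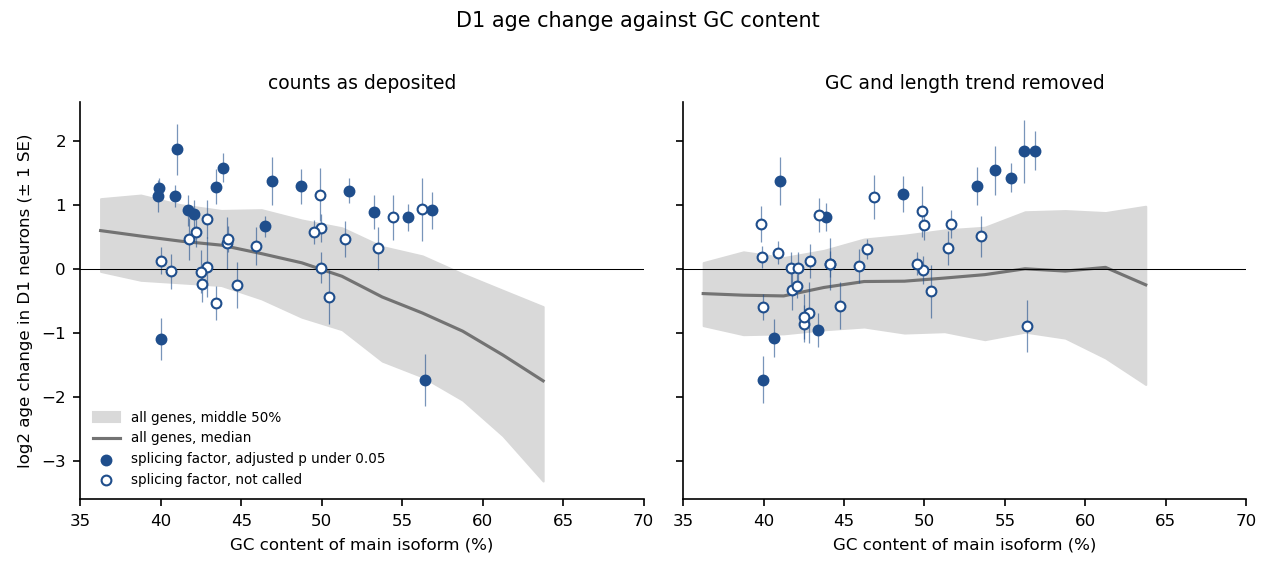
D1 age change (log2, with 1 SE) against the GC content of the main isoform in percent, for the 39 genes (circles, filled where the adjusted p was under 0.05) over the median and middle 50% of all genes (line and band), from counts as deposited (left) and after removal of the composition and length trend (right). The line over all genes falls with GC content on the left. On the right Spearman's rho with GC content was 0.48 within the 39, and the genes called higher number 8 in place of 15.

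The number of calls also depended on the libraries that enter the fit. With only the D1 libraries, 5 genes rose and none fell, against 1.57% and 0.923% of all genes, and voom with library weights called 9 higher and none lower, against 2.81% and 1.11%. Without young D1 library 1 edgeR called 9 higher and 1 lower, against 2.93% and 3.48%. DESeq2 called 18 higher and 2 lower, against 8.47% and 10.2%, and its calls included Srsf2, Sfpq and Hnrnpul2.

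The second comparison asks the same in D2 neurons. None of the 39 was called by edgeR, where 0.0646% of all genes rose and 0.0144% fell (0.0790% together). An unadjusted p under 0.05 was found for 2 of the 39 and for 801 of all 13926 genes. DESeq2 and voom with library weights each called 1 of them, Hnrnpdl, as higher, against 0.488% and 0.553% of all genes. The median log2 change was 0.08 over the 39 and 0.01 over all genes, with a range of -0.33 (Sf3b1) to 0.76 (Hnrnpm). Old D2 libraries lay above all young D2 libraries in TPM for 2 genes, Hnrnpa2b1 and Hnrnpdl, where 4.43% of all genes did so, and below them for none, where 2.64% did.

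Whether the age change differed between the cell types was tested directly. It was higher in D1 for 3 genes and lower for none, against 0.926% and 0.840% of all genes (1.77% together). The median difference was 0.52 over the 39 and -0.11 over all genes. The difference was 1.08 for Hnrnpu (log2, SE 0.25, edgeR adjusted p = 0.0320), 0.98 for Hnrnpa3 (SE 0.23, edgeR adjusted p = 0.0321) and 1.10 for Srrm2 (SE 0.28, edgeR adjusted p = 0.0483). The other 36 were not called, with values from -1.83 for U2af2 (edgeR adjusted p = 0.0966) to 1.498 for Srsf11 (edgeR adjusted p = 0.139). None of the 3 was called once the composition and length trend was removed, where Hnrnpa3 was at -0.0498 and the calls were Hnrnpa0 and Srsf4 instead. The count was 0 or 1 without any 1 of 12 libraries (young D1 1, 2 or 4, old D1 1, or any D2 library) and 7 without old D1 library 3 (6 higher and 1 lower, against 1.84% and 2.70% of all genes). DESeq2 called 8 higher and 1 lower, against 3.10% and 4.22%.

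Between the cell types at 42 days no gene of the 39 was called by edgeR, where 0.201% of all genes were higher in D1 and 0.208% lower (0.409% together). DESeq2, with 0.761% and 0.582% of all genes, and voom with library weights, with 0.754% and 0.704%, also called none of them. The median log2 value was -0.26 over the 39, of which 32 were lower in D1, and 0.02 over all genes. Young D1 libraries lay below all young D2 libraries in TPM for 10 genes (Tra2a, Hnrnpa1, Hnrnpa2b1, Hnrnpab, Hnrnpd, Hnrnph1, Hnrnpu, Hnrnpul2, Sf3b1 and Nono), where 3.98% of all genes did so, and above them for Hnrnpl alone, where 2.37% did. These young D1 libraries are the ones the D1 age comparison starts from, so the results share them. The largest difference was -0.95 ± 0.41 for Sfpq (log2 and SE, edgeR adjusted p = 0.718).

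At 2 years 5 of the 39 were higher in D1 than in D2 neurons (Srrm2, Hnrnpa3, Sf3b1, U2af1 and Tardbp) and 2 were lower (Srsf7 and U2af2), against 5.02% and 4.58% of all genes (9.60% together). On TPM, old D1 lay above old D2 libraries for 7 of the 39 and below for 2, against 4.66% and 10.2% of all genes. U2af2 differed most, by -1.95 ± 0.41 (log2 and SE, edgeR adjusted p = 0.00576), and Srsf7 by -1.36 ± 0.33 (edgeR adjusted p = 0.0128). Of those higher, U2af1 was at 1.19 ± 0.36 (edgeR adjusted p = 0.0422), and the other 4 lay between 0.61 and 0.90. Each of the 5 lost its call with only these 2 groups in the fit, as did U2af2 and Srsf7, and leaving out old D2 library 1, 2 or 3 left none higher and the same 2 genes lower. With the composition and length trend removed 4 were higher and 4 lower, against 3.09% and 3.79% of all genes. Srsf7 and U2af1 kept their call, and the other 6 were new: Hnrnpa0, Ewsr1 and Srsf4 higher, and Srsf1, Srsf3 and Hnrnpk lower. U2af2 lost its call there, and Sf3b1 (-0.13) and Hnrnpa3 (-0.28) turned sign. The old D1 libraries are shared with the D1 age comparison.

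Other genes of the splicing pathway were counted from lists drawn up beside the 39. Of 82 other splicing genes tested, 7 rose and 6 fell, with a median log2 change of 0.22, against 5.39% and 5.44% of all genes that rose and fell. Among 21 other SR-related genes 4 rose, among them Bclaf1, Luc7l3 and Srek1, and Rnps1 and Scaf1 fell. The SR protein kinases, which phosphorylate the arginine-serine tails, had 1 call in 6 genes: Srpk1 fell from 128 ± 69.7 to 34.4 ± 8.84 TPM (SD, n = 4; log2 -1.45 ± 0.33, edgeR adjusted p = 0.00767). Of 11 genes of the U2 snRNP, which holds Sf3b1, only Snrpb2 was called (higher), and of 27 genes of the other snRNPs only Snrpa (lower). Among hnRNP and FET genes outside the 39, Matr3 and Pcbp2 rose and Taf15 and Pcbp1 fell, of 14. The NMD factors Upf2 and Upf3b rose and Smg5 fell, of 10 tested. In D2 neurons none of these lists had a call by edgeR. An unadjusted p under 0.05 was found for 1 of the 82 genes, 2 of the 10 NMD factors and 801 of all 13926 genes.

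The last question is which isoforms these counts fall on. GENCODE marks isoforms as protein-coding, as targets of NMD, as retaining an intron or as other processed transcripts, and the share of a gene's estimated counts on isoforms not marked protein-coding is called its non-coding share here. Of the 39 genes, 14 had no non-coding isoform in the files and another 4 fell outside the limits of the test, which left 21 of 4149 genes tested. Over the 16 libraries the highest non-coding shares were 47.0% for Hnrnph1 (mostly Hnrnph1-212, a processed transcript), 35.5% for Srsf2 (Srsf2-204, NMD), 33.9% for Hnrnpl (Hnrnpl-213, NMD), 33.8% for Srsf3 (Srsf3-205, retained intron) and 30.8% for Sfpq (Sfpq-206, a processed transcript). Isoform counts are estimates that a model makes from shared fragments, so they carry more error than gene counts.

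Exons that isoforms marked as NMD targets hold and protein-coding isoforms lack can be read from the genome. Whether such an exon is what makes its isoform an NMD target was not tested. They were taken as exons of NMD isoforms that lie outside every protein-coding isoform, with a mean of at least 20 estimated counts, a rule set after the data were seen. Of the 6 found, those of Hnrnpl and Hnrnpd are shown because their isoforms differ most between young and old D1 libraries below, and those of Tra2b and Srsf3 for comparison. Each line gives the last 24 bases of the intron in lower case and the first 5 bases of the exon in capitals, 5′ to 3′, from GRCm38.
Hnrnpl (chr7:28817311-28817339, plus strand, exon of 70 bases): tgactgtaaaaccatgtgatgcagGGTCG
Hnrnpd (chr5:99962200-99962228, minus strand, exon of 107 bases): ttataccttgtttgtacccgccagCGGGA
Tra2b (chr16:22259257-22259285, minus strand, exon of 276 bases): tcatcctgttctttttctattaagGTTAA
Srsf3 (chr17:29039430-29039458, plus strand, exon of 456 bases): taataaaaatgaaccccgttacagAGTCA

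All 4 introns end in AG, and all 4 exons are followed by GT. Of the 20 bases before the AG, 9 are pyrimidines in Hnrnpl and Srsf3, 14 in Hnrnpd and 16 in Tra2b. The exons' other ends, with 4 exon bases in capitals and 8 intron bases in lower case, read as follows.
Hnrnpl (chr7:28817401-28817412, plus strand): AATGgtaagaga
Hnrnpd (chr5:99962090-99962101, minus strand): TTTGgtatggtc

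Hnrnpl-213, the isoform with the Hnrnpl exon, held most of the gene's counts in 3 of 4 old D1 libraries and few elsewhere. It held 0, 0, 4.61 and 0% of them in young D1 and 97.3, 67.9, 43.6 and 53.2% in old D1 libraries, and 0, 9.11, 0 and 0% in young D2 and 11.4, 1.63, 0 and 15.7% in old D2 libraries. The old D1 libraries lay above all other 12. The gene's total behind these shares was 2246 to 2533 estimated counts in young D1 and 416, 3422, 1798 and 653 in old D1 libraries, where 0 counts allow a share of up to 0.134% in young D1. Intervals and limits of this kind cover counting error only.

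The limma test over NMD isoforms alone, an alternative to the test over all non-coding isoforms, covered 10 of the 39 genes and called Hnrnpl as higher with age in D1 neurons (adjusted p = 0.0270), where 1.64% of 1278 genes were. The log2 ratio depends on the pseudocount when most young libraries are at 0, at 9.09 to 11.7 for pseudocounts of 5 and 0.5. The call ended with only the D1 libraries (limma adjusted p = 0.0572) and without young D1 library 1, 2 or 4 or old D1 library 1 or 2 (limma adjusted p of 0.0558 to 0.0742). The difference of the age changes between D1 and D2 was not called (limma adjusted p = 0.420), nor was old D1 against old D2 (limma adjusted p = 0.111). Over all non-coding isoforms Hnrnpl had no call in D1 age (limma adjusted p = 0.157), and young D1 library 4 stood at 68.4% there through other isoforms.

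Isoforms with the Hnrnpd exon of 107 bases held 6.83, 5.04, 3.72 and 0.559% of the gene's counts in young D1 and 23.4, 9.79, 16.7 and 17.2% in old D1 libraries, without overlap. In D2 they held 2.36, 9.04, 1.249 and 6.49% when young and 37.5, 4.83, 0.141 and 1.17% when old, so that 1 old D2 library stood above all D1 libraries. The Tra2b exon went the other way in its means, from 11.6 ± 17.7% (SD, n = 4) in young D1 to 1.42 ± 1.84% in old D1, with a spread as large as the difference. For Srsf3 the means were 4.65 ± 4.67% and 1.01 ± 1.43%. The 3′ splice site of the Hnrnpd exon also opens a shorter exon of 71 bases in another NMD isoform, Hnrnpd-209. That isoform held 2.21, 4.89, 5.56 and 6.92% in young D1 and 6.31, 1.77, 22.5 and 0% in old D1 libraries, which overlapped. No test was made of these single exons, and NMD isoforms of Hnrnpd as a class were not called in D1 age (limma adjusted p = 0.678).

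In the main test of the non-coding share, none of the 21 genes was called for age in D1 neurons, where 3.30% of all genes were, and 3 of the 21 had an unadjusted p under 0.05, as did 789 of all 4149 genes. The median change of the log2 ratio was -0.92 over the 21 and 0.41 over all genes. In D2 neurons, in the difference of the age changes and between cell types at 42 days none of the 21 was called either, where 0.0241%, 0.313% and 0% of all genes were, and 1, 3 and 1 of them had an unadjusted p under 0.05, as did 139, 477 and 147 of all 4149 genes.

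The 1 call among the 21 genes tested was Srsf9, between the cell types at 2 years. As a share of the 21 this is no higher than the 5.23% called over all genes. Its non-coding isoforms, mostly Srsf9-203, held 0% of its counts in all 4 old D1 libraries and 6.04, 23.5, 83.8 and 13.2% in old D2 libraries (limma adjusted p = 0.0102, where 217 of 4149 genes, 5.23%, were called). The young libraries held 18.8, 3.24, 43.7 and 0% in D1 and 12.6, 20.01, 10.4 and 18.7% in D2. With 718 to 1353 counts of the gene in an old D1 library, 0 counts allow a share of up to 0.222 to 0.418%. The call held under each of the 14 alternatives run for it that gave a value, with adjusted p-values of 0.00596 to 0.0441. For age in D1, edgeR did not call Srsf9 itself at the gene level on the deposited counts, at 33.5, 22.6, 28.8 and 20.9 TPM in young D1 and 56.0, 30.9, 67.6 and 39.4 in old D1 libraries (log2 0.93 ± 0.49, edgeR adjusted p = 0.236). With the composition and length trend removed it was called higher (edgeR adjusted p = 0.0332).

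**Figure D4:**
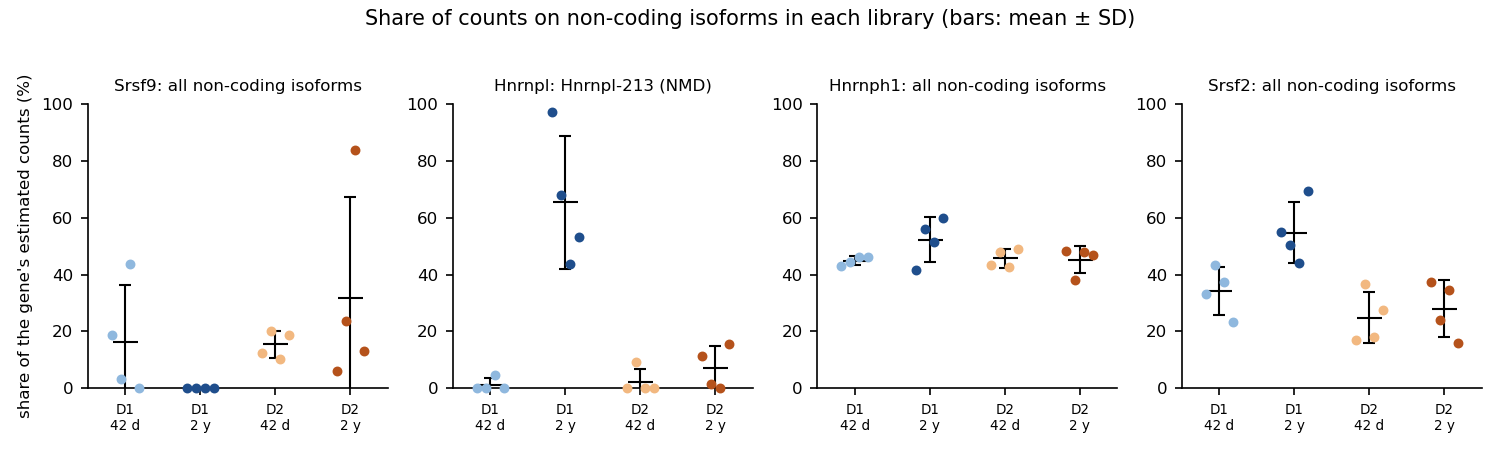
Share of a gene's estimated counts, in percent, on all non-coding isoforms of Srsf9, Hnrnph1 and Srsf2 and on the NMD isoform Hnrnpl-213, in each library (points) with the group mean and SD (bars). Hnrnpl-213 lies between 43.6 and 97.3% in old D1 and at or below 15.7% in the other 12 libraries, and Srsf9 is at 0% in all 4 old D1 libraries.

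Srsf2 and Hnrnph1, the pair with the highest non-coding shares, differed in spread. Srsf2 held 33.3, 43.3, 37.5 and 23.3% in young D1 and 54.8, 50.3, 44.1 and 69.4% in old D1 libraries, which did not overlap, and 17.2, 36.6, 18.2 and 27.5% in young D2 and 37.5, 23.96, 34.7 and 15.8% in old D2 libraries. The D1 change was not called (limma adjusted p = 0.485). Hnrnph1 stayed between 38.2 and 59.7% in all 16 libraries and was not called in any comparison. Sfpq held 34.8, 31.0, 34.8 and 39.4% in young D1 and 24.4, 69.3, 32.8 and 64.5% in old D1 libraries, and Srsf3 30.8, 51.7, 37.5 and 34.4% against 17.4, 41.7, 31.2 and 7.67%, with overlap in both and no call. On TPM, Srsf3 was at 207, 221, 227 and 178 in young D1 and 152, 267, 184 and 198 in old D1 libraries, and at 297, 291, 251 and 203 in young D2 and 260, 261, 343 and 385 in old D2 libraries. Hnrnpl was at 84.7, 126, 72.2 and 87.2 TPM in young D1 and 15.8, 124, 75.2 and 21.5 in old D1, and at 64.1, 51.7, 69.6 and 60.9 in young D2 and 67.4, 123, 142 and 80.7 in old D2 libraries, so its level overlapped between D1 ages.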

How the data were processed

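The genes and lists were chosen with earlier results of these data known. The submitters' processing notes name RSEM 1.2.20, STAR 2.5.1b and the mm10 build, with no role for each. The files deposited by the authors hold, per gene and isoform, RSEM expected counts (estimated counts of fragments) and TPM. RSEM shares a fragment among genes and isoforms by a model, so genes with near-identical copies or processed pseudogenes, as several hnRNP A genes have, are uncertain, as are genes that overlap on the other strand (12 of the 39, among them Srrm2, Hnrnpu and Tardbp), because strand use is not given in the sources used here. Gene names and isoform types came from GENCODE M21 (37607 of 39017 genes matched; matched isoforms held at least 98.8% of counts), and sequences from GRCm38.

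Expected counts were rounded and tested over all 16 libraries with 1 mean per group in edgeR 4.0.16 (R 4.3.3; TMM, filterByExpr, robust quasi-likelihood, Benjamini-Hochberg over 13926 genes, threshold 0.05). The ratio of non-coding to coding isoform counts (log2, pseudocount 1) was tested with limma 3.58.1 (trend, robust) over 4149 genes with both classes, a mean count of at least 100 and a mean share of 1 to 99%. Both fits were run on simulated data in which every group had the same spread and no isoform class was without counts. That simulation does not cover the lower correlation of old D1 libraries or isoform classes without counts. Alternatives were DESeq2 1.42.0, RLE scaling, no filter, fewer groups, voom with library weights, limma on log2(TPM + 1) and log2(TPM + 0.1), a GC and length trend as an offset (splines with 5 degrees of freedom, centred in each library after an uncentred version had moved the median of all genes), other isoform classes, pseudocounts and count limits, and each library left out in turn. Genes with values in every library were the 14 with the smallest adjusted p of the 19 called in any comparison, plus the 3 highest and 3 lowest by TPM and the 5 with the highest non-coding share. The others are given by mean or range, and Srsf11, U2af1 and the exons of Hnrnpd, Tra2b and Srsf3 were given more values after these were seen. P-values measure the spread between these libraries. The main fits take a common spread for each gene over all 4 groups, so the D1 age test also draws on D2 libraries. Pairs of old D1 libraries correlated less than pairs in the other groups.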

Additional observations from a re-analysis of the deposited data

Results flagged for a closer look

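In 4 of 88 groups of 4 libraries examined, 1 library lay far from the other 3, and chance gives about 1 in 20. Hnrnpa3 was at 562.9 TPM in old D1 library 4 and at 782.1 to 826.7 in the others of its group. Srsf2 was at 1021 TPM in old D1 library 2 and at 762.2 to 799.1 in the others. The non-coding share of Hnrnph1 was 38.24% in old D2 library 2 and 46.9 to 48.22% in the others, and that of Hnrnpl was 68.37% in young D1 library 4 and 2.021 to 12.48% in the others. In the main fit the edgeR test called the age change different between D1 and D2 neurons for 3 genes. They were Srrm2 (log2 1.099, adjusted p = 0.0483), Hnrnpu (1.078, adjusted p = 0.0320) and Hnrnpa3 (0.9817, adjusted p = 0.0321). Of 24 alternatives the call held under 2 for Srrm2, 11 for Hnrnpu and 8 for Hnrnpa3.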

How the results depend on the processing

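No paired analysis was possible because the labels give the libraries no replicate numbers, and the numbers in the text serve as names. For age in D1 neurons, 17 of the 39 genes were called. The count was 11 after removal of the base composition trend, 5 with only the compared groups and 9 by voom with library weights. It was 20 by DESeq2 and 18 by limma on log2(TPM + 1), which called 700 of all 13926 genes higher and 927 lower. The shares of all genes under the other fits are given above. Leaving out 1 library gave 10 to 18. At 10 (without young D1 library 1), 420 of 14338 genes were higher and 499 lower. At 18 (without old D1 library 3), 896 of 14425 were higher and 1159 lower. For age in D2 neurons 0 were called, and 1 by DESeq2 and 1 by voom (0 to 0 leaving out 1 library). For the difference of the age changes 3 were called, 0 with no count filter and 9 by DESeq2. Without the filter, 86 of 19345 genes were called higher and 90 lower. Limma called 1 on log2(TPM + 1), where 66 of 13926 genes were higher and 124 lower. It called 1 on log2(TPM + 0.1), where 74 were higher and 154 lower. Leaving out 1 library gave 0 to 7. Without old D2 library 2, which gave 0, 34 of 14368 genes were higher and 32 lower. Without old D1 library 3, which gave 7, 266 of 14425 were higher and 390 lower. Between cell types at 42 days all alternatives gave 0. At 2 years 7 were called, 0 with only the compared groups and 3 by voom; leaving out 1 library gave 2 to 7. The cause of these differences was not tested, beyond the fewer libraries in some fits.

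The sign turned for Sf3b1 and Hnrnpa3 after removal of the composition and length trend: Sf3b1 was at -0.27 for age in D1 and -0.13 against D2 at 2 years, and Hnrnpa3 at -0.0498 for the difference of the age changes and -0.28 against D2 at 2 years. With scaling recomputed on the adjusted counts, added after seeing the data, Sf3b1 was at -0.098 for age in D1 and Hnrnpa3 at -0.15 at 2 years. For the non-coding share, 1 gene was called for age in D1 with the share of TPM (Srsf9, lower) and 1 with NMD isoforms only (Hnrnpl, higher). The main test called 0, and leaving out 1 library gave 0 to 1. Over all genes the share of TPM called 73 of 4149 higher and 76 lower, and NMD isoforms 21 of 1278 higher and 19 lower. Without young D1 library 4, which gave 1, 61 of 4149 were higher and 32 lower. At 2 years the 1 call became 0 with NMD isoforms only and 0 with retained introns only, since Srsf9 has no isoform of either class. Over all genes, 27 of 1278 were higher and 19 lower with NMD isoforms, and 50 of 2181 higher and 33 lower with retained introns. Leaving out 1 library gave 1 to 1. Of all 4149 genes, 71 were higher and 32 lower without old D2 library 3, and 219 higher and 107 lower without old D1 library 3.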
